A study of Drosophila melanogaster with 3 samples.

Results

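The 10 genes described here build the body wall muscles of the Drosophila embryo, and the question was where along them the tagged protein CG15601 was found. Binding was mapped by chromatin immunoprecipitation and sequencing (ChIP-seq), in which DNA bound to a protein is recovered with an antibody and sequenced. The material was whole embryos of both sexes aged 0 to 14 h. They came from transgenic flies in which CG15601 carries GFP at its C-terminal end, and the antibody recognised GFP. There were 3 samples, biological replicates 1, 2 and 3 of 1 group, all from the same transgenic line. No group without the tag was analysed here, so antibody binding that does not depend on the tag was not measured. Whole embryos hold many tissues, so a site used in few cells and a weakly bound site in many cells cannot be told apart, and no measurement here is specific to muscle cells.

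Members were set by gene name, and no measured value entered the rule, but the genes were chosen with earlier results of these data known. They are all peaks whose summit, the base of highest signal, lay in the body of a listed gene or within 5 kb of it. The authors thresholded a list by the irreproducible discovery rate (IDR), which asks whether peaks keep their rank between replicates. In this IDR list 53 of 6458 peaks were members. In the list called on the 3 replicates together (the pooled list) 255 of 30000 were members. The replicate lists held 252, 242 and 233 members of 30000 peaks each in replicates 1, 2 and 3. Gene positions are on dm6, from the Ensembl annotation. The regulators are Mef2 (chromosome 2R, 9913496 to 9958858, minus strand), nau (3R, 23712814 to 23718357, minus) and how (3R, 22042191 to 22079321, plus). The fusion genes are kirre (X, 2740384 to 3134532, plus), rols (3L, 12008225 to 12064859, minus) and sns (2R, 8798489 to 8856091, plus). The sarcomere genes are Mhc (2L, 16766566 to 16788766, plus), Tm1 (3R, 15278220 to 15308779, plus), its neighbour Tm2 (3R, 15310193 to 15315197, plus) and sls (3L, 2039681 to 2115611, minus). Peaks are ranked within a list by the authors' signal value, with 1 the strongest. Every member of the IDR list had the same rank in the pooled list, so its IDR rank is a rank of pooled signal. All IDR peaks were also pooled peaks. Down to the weakest member (rank 6338), the IDR list was therefore the strongest part of the pooled list. A member was in it by its pooled signal, whether or not that peak agreed between replicates. Being in the IDR list did not mean a similar rank in each replicate. For the Mef2 peak of IDR rank 6228, the overlapping peaks had ranks 20499, 2226 and 8980 in replicates 1, 2 and 3. The files give no read numbers, so the depth behind a peak is unknown.

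Each larval body wall muscle of the fly starts from a founder myoblast that takes up fusion-competent myoblasts. Mef2 is a MADS-box transcription factor needed for muscle differentiation, nau is the fly relative of the MyoD family and acts in a subset of founders, and how encodes a KH-domain RNA-binding protein of muscle and tendon cells. The immunoglobulin proteins Kirre (also called Dumbfounded) on founders and Sns (Sticks and stones) on fusion-competent cells recognise each other, and the adaptor Rols links Kirre to the fusion machinery inside the founder. The fused fibre then assembles sarcomeres from muscle myosin heavy chain (Mhc), the tropomyosins Tm1 and Tm2, which regulate access of myosin to actin, and the titin-like spring protein Sallimus (sls). Tm1 also makes cytoplasmic tropomyosins outside muscle.

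The sequences under promoter and intron summits of sls, rols, kirre, how and nau show what kind of DNA lay there. Each reaches 50 bp to either side of the summit, is read 5′ to 3′ on the strand of the gene from the RefSeq copy of genome release 6, and has in capitals any match to the 8 sequence words searched. The pair of kirre windows with a match to the MEF2 consensus is included, since MEF2 sites are the best known muscle sites. Windows that lay in annotated untranslated exons are not shown, which takes out Tm1.
sls promoter, chr3L:2115858-2115958, minus strand: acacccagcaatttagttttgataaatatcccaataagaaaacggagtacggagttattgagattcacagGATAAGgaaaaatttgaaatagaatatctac
rols internal promoter, chr3L:12056740-12056840, minus strand: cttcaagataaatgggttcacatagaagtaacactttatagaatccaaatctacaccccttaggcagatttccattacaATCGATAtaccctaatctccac
rols intron, chr3L:12039300-12039400, minus strand: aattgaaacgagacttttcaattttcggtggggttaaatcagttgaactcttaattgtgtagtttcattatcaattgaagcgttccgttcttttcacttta
kirre intron, strongest, chrX:3097154-3097254, plus strand: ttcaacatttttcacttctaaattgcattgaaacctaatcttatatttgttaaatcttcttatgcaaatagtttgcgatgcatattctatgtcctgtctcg
kirre intron with MEF2 match, chrX:3022572-3022672, plus strand: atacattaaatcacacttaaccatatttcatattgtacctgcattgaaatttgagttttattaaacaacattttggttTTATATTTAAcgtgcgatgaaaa
kirre intron with MEF2 match, chrX:3083386-3083486, plus strand: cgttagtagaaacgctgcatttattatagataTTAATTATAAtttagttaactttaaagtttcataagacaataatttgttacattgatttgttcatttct
how intron, chr3R:22049243-22049343, plus strand: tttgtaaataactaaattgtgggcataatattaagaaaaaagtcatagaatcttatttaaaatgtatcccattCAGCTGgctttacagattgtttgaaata
nau intron, chr3R:23714074-23714174, minus strand: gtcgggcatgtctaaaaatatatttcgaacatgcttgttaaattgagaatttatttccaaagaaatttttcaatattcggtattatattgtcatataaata

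These windows were rich in A and T. G and C made up 31.7% of the sls window, 36.6% of the rols promoter window and 24.8% of the nau window. Over all 53 member summits the mean was 33.1% ± 9.30 (SD over peaks), against 34.7% ± 10.1 over the 6458 IDR peaks and 39.0% over the other pooled peaks.

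Few windows held words bound by muscle factors, among the members and in the IDR list alike. The words were searched on both strands, and a match is a description of letters, not a site. The MEF2 consensus was in 2 of 53 windows (3.77%), both of kirre, against 7.31% of IDR windows and 4.63% of the other pooled windows. Of the E-boxes, CACATG, a word of Twist, was in 3 (5.66%, kirre and rols), against 3.76% of IDR windows. CATATG, also a Twist word, was in 1 (1.89%), against 3.95%, at the CG10365 promoter in the nau window. CAGCTG, the word of the MyoD family, was in 1 window (1.89%), against 4.35%, in the how intron printed above. TCAAGTG, the word of Tinman, was in none (0 of 53), against 1.72%. ATCGATA, part of the DRE bound by Dref, was in 2 (3.77%), against 5.09%, at the promoters of rols and Mef2. GATAAG, the word of GATA factors, was in 3 (5.66%), against 6.38%, among them the sls promoter, and GAGAGA in 1 (1.89%), against 3.82%. No member window held more than 1 of the words, so no matches overlapped there. Each share rests on at most 3 windows, and none was tested against the IDR list.

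The fusion genes carried 24 of their 33 IDR summits in introns, the regulators 7 of 16, and the sarcomere genes none of 4, of which 3 were at own promoters and 1 at the promoter of another gene. A summit within 500 bp of any annotated transcription start site (TSS) of the gene was called own promoter. An intron summit lay inside the gene, outside its exons and over 500 bp from the TSS of any gene. The 53 member summits fell into 31 in introns, 6 at own promoters, 1 in an exon, 3 in flanks, and 12 at the promoters of other genes only. All 3 regulators had an intron summit and 1 of 3 a promoter summit. Of the fusion genes, 2 of 3 had an intron summit and 1 of 3 a promoter summit. None of the 4 sarcomere genes had an intron summit and 2 of 4 had a promoter summit. With 3 or 4 genes to a role, these are values and not a test. Of the 24 intron summits of fusion genes, 19 were in kirre and none in sns. Intron over 500 bp from any TSS made up 449.5 kb in the fusion genes, 70.90 kb in the regulators and 46.23 kb in the sarcomere genes. Per 10 kb of it the 10 members had 0.547 IDR summits, against 0.395 over all protein-coding genes and 0.337 over those of at least 20 kb. Shares of all IDR peaks by place are not given here.

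**Figure D1:**
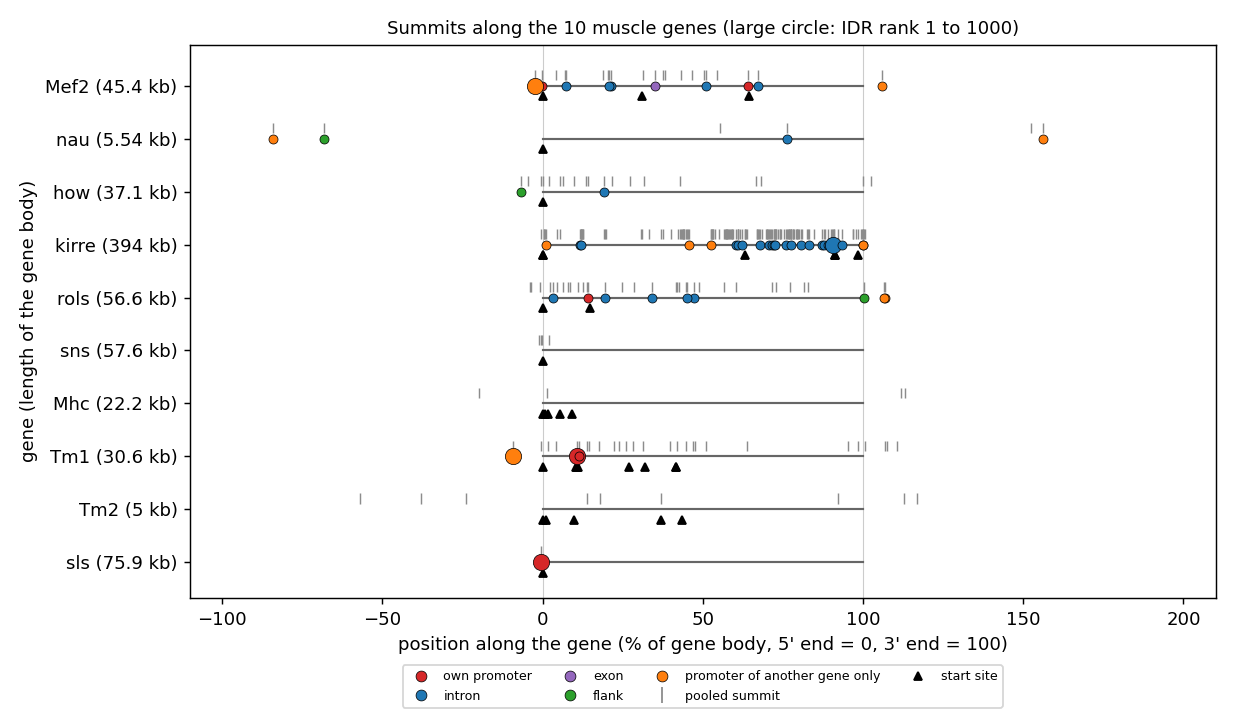
Summits along the 10 genes, with the position given as percent of the gene body from its 5′ end (0) to its 3′ end (100), circles for IDR summits coloured by place, grey ticks for pooled summits and triangles for start sites. The blue intron circles sit in Mef2, nau, how, kirre and rols, the red promoter circles in Mef2, rols, Tm1 and sls, and sns, Mhc and Tm2 have no circle.

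Among long genes, the members' intron count was near the background. In the IDR list 4 of 10 members had an own promoter summit, against 26.7% of 13945 protein-coding genes, and 7 of 10 had any summit in the window, against 55.6%. An intron summit was found in 5 of 10 members, against 7.28% of protein-coding genes. The members are long, however, with a median body of 41.2 kb against 2.17 kb for all. Of the 8 members with a body of at least 20 kb, 4 had an intron summit, against 48.0% of the 1013 protein-coding genes of that length, and 4 had a promoter summit, against 37.6%. The replicate lists, each limited to its 6458 strongest peaks, gave similar counts. The promoter count was 4 of 10 in replicates 1, 2 and 3, against 23.8%, 26.5% and 29.5% of protein-coding genes. The intron count among the 8 long members was 5, 4 and 5, against 52.9%, 46.6% and 45.7% of long genes.

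The genes behind these equal counts were not identical. Promoters of Tm1 and sls were in all 3 replicate counts. The Mef2 promoter was in those of replicates 2 and 3, the rols promoter in those of 1 and 3, and the how promoter in those of 1 and 2. Introns of Mef2, nau, how, kirre and rols were in every count, and Tm1 joined them in replicates 1 and 3.

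Peaks in the windows were spread over the strength of the IDR list. The median rank was 3951, against 3230 over all IDR peaks, but kirre holds 24 of the 53, and without it the median was 3026, on the other side of the list's. Among the 500 strongest were 5 of 53 (9.43%), against 7.74% of the list. These 5 were at the Tm1 promoter (rank 47), at the Pal1 and Pdrg1 promoters beside Mef2 (rank 93), at the Cp190 promoter beside Tm1 (rank 150), in a kirre intron (rank 303) and at the sls promoter (rank 487). By role the median rank was 3200 for the 16 regulator peaks, 4580 for the 33 fusion gene peaks and 318.5 for the 4 sarcomere gene summits. A pair of these 4 belongs to 1 Tm1 peak and another is at the Cp190 promoter. Counting that Tm1 peak once gave a median of 150, and own promoter summits alone gave 487.

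**Figure D2:**
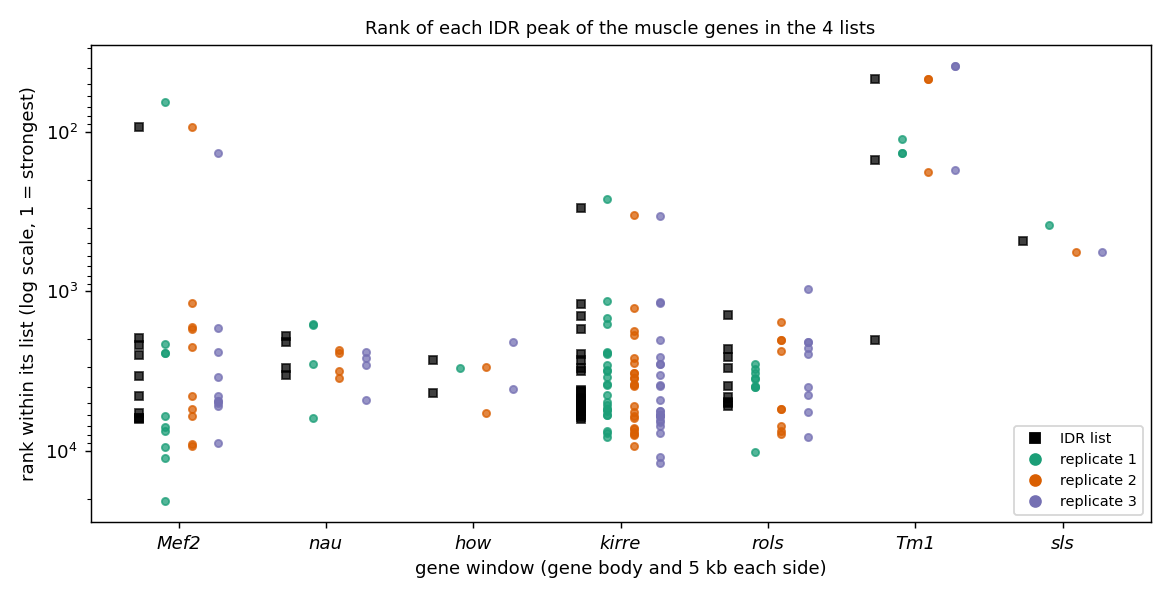
Rank of each IDR peak of the 7 genes that have one, in the IDR list (squares) and as the strongest overlapping peak in replicates 1, 2 and 3 (circles), on a log axis with the strongest at the top. The strongest peaks of Mef2, kirre, Tm1 and sls stand above the rest in every list, from rank 47 at Tm1 to rank 487 at sls in the IDR list, and nau, how and rols have no IDR peak above rank 1416.

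Among the regulators, Mef2 had the most IDR summits, 10 in its window. There were 5 in introns, 2 at own promoters, 1 in a 5′ untranslated exon and 2 at promoters of neighbours. The strongest intron summit (9949210, rank 1958) had ranks 2447, 1178 and 2407 in replicates 1, 2 and 3, here and below as the strongest peak that overlapped it. It lay 4446 bp upstream of the middle one of the 3 Mef2 start sites, and a narrower peak of rank 2511 adjoined it. The second strongest (9928320, rank 2181) had ranks 7119, 1666 and 1706, so replicate 1 was the low one. The peak at 9935730 (rank 3412) had ranks 2129, 4521 and 4895. The weakest intron peak (9955490, rank 6228) differed most, with ranks 20499, 2226 and 8980. The Mef2 start sites themselves carried weak peaks. At the most upstream TSS the summit lay 18 bp upstream (rank 6264), with ranks 11075, 6015 and 5021 in replicates 1, 2 and 3. At the most downstream TSS the summit lay 180 bp upstream (rank 5786), with ranks 7554, 9304 and 4557. The middle TSS had no IDR summit, and its pooled peak had rank 7496.

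The strongest peak in the Mef2 window belonged by position to other genes. Its summit (9959918, rank 93) was within 500 bp of start sites of Pal1 (160 bp) and Pdrg1, and 1060 bp upstream of the nearest Mef2 TSS. It had ranks 65, 94 and 136 in replicates 1, 2 and 3, far above every peak within Mef2. The peak past the 3′ end (rank 6338) was 31 bp from the TSS of Etf-QO, an electron transfer flavoprotein gene.

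In nau, the IDR list had 1 summit in the gene and none at its promoter. The intron peak (3R, 23714124, rank 3357) had ranks 2863, 3521 and 4797 in the replicates. No list held a summit within 500 bp of the nau TSS. The other 3 peaks of the window lay outside the gene, at the promoters of CG10365 (rank 1908) and CG10301 (rank 2088) and 3775 bp upstream of nau (rank 3044).

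The gene how carried 1 intron summit (22049293, rank 2696), 7102 bp downstream of its TSS, with ranks 3020, 2982 and 2093. A flank peak 2555 bp upstream (rank 4328) had ranks 5823 and 4097 in replicates 2 and 3 and no overlapping peak in replicate 1. The how promoter missed the IDR list narrowly. Its pooled summit, 136 bp upstream of the TSS, had rank 6562, just past the 6458 of the list, and ranks 3430, 4283 and 15710 in replicates 1, 2 and 3, so replicate 3 was the low one.

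Among the fusion genes, kirre held 24 of the 53 member summits, in a body of 394 kb. Of these, 19 were in introns and 5 at promoters of other genes, and none was at any of its 6 start sites. The best rank of a pooled peak within 500 bp of a kirre TSS was 25046 of 30000. That value depends on the limit, since a pooled peak of rank 7903 (2989553) lay 502 bp downstream of the TSS 249 kb into the gene. The peaks that overlapped it had ranks 8309, 7982 and 11092 in replicates 1, 2 and 3. The strongest intron peak (X, 3097204, rank 303) lay 2346 bp upstream of an internal TSS and had ranks 265, 335 and 340 in the replicates. The next (3046146, rank 1197) had ranks 1158, 1277 and 1166, and a further one (3018865, rank 1721) ranks 1613, 1894 and 2021. Each of these 3 had similar ranks in all lists.

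Intron summits of kirre gathered towards the 3′ end of the gene. On the 3′ side of the midpoint there were 17 IDR intron summits, against 2 on the 5′ side, and the pooled list had 88 against 28. Among the 6458 strongest peaks of replicates 1, 2 and 3 the counts were 20 against 2, 12 against 1 and 13 against 2. The pair on the 5′ side also lay inside an overlapping gene, CG32795. Peaks of rank 4732 and 4301 at the 3′ end of kirre were 339 and 120 bp from a TSS of N, which encodes the Notch receptor, and the peak of rank 1431 was 161 bp from the TSS of Syx4, a syntaxin gene inside the kirre body. CG3588 and CG3603, also inside it, had the peaks of rank 5984 and 5405.

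For rols the counts ran the other way along the gene. Its 5 IDR intron summits were all on the 5′ side of the midpoint, and the pooled list had 19 on the 5′ side and 6 on the 3′ side. The strongest intron peak (12039350, rank 2306) had ranks 3529, 2029 and 2468 in replicates 1, 2 and 3. The next (12063013, rank 2584) had ranks 3052, 2367 and 2271. At the internal one of its 2 start sites, which lies 8.38 kb from the other, the summit printed above (rank 4580) was 316 bp upstream, with ranks 3234, 7522 and 4011. No IDR summit lay at the upstream TSS, where the pooled peak had rank 12464. The strongest peak of the window (12008122, rank 1416) lay in the flank just beyond the 3′ end of rols, with ranks 2844, 1559 and 972. The promoter of CG6928 on that side had the peaks of rank 3026 and 4922.

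In contrast to kirre, its partner receptor gene sns had no IDR summit in 57.6 kb. The pooled list held 4 peaks in the window, the strongest of rank 12992, 573 bp upstream of the single TSS, with ranks 14215, 14120 and 6833. At the promoter itself the best pooled rank was 27804, and 14726, 14853 and 19261 in replicates 1, 2 and 3. Only 1 pooled summit lay in the gene body.

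Among the sarcomere genes, the Tm1 promoter had the strongest peak of all 10 genes. The peak was broad (15280882 to 15281944, 1063 bp) and was listed with 2 summits, of rank 47, 6 bp upstream of a TSS, and of rank 2035, 181 bp downstream of a TSS. The overlapping peaks had ranks 137, 47 and 39 in replicates 1, 2 and 3. These positions are at the cluster of 3 start sites that begins 3.15 kb into the gene, inside 5′ untranslated exons of longer transcripts. The outermost TSS had no IDR summit, and its pooled rank was 10399. The 4 start sites farther in had none either, with pooled ranks from 6653 to 14272. The Tm1 body carried 21 pooled summits, 2 of them the IDR summits above. Another 12 were in introns, and none of these was in the IDR list. Upstream, the peak of rank 150 was within 500 bp of start sites of CG4338 (139 bp) and of the insulator protein gene Cp190, and 2837 bp from Tm1, with ranks 111, 178 and 174.

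At sls the only pooled peak in 75.9 kb and its flanks was the promoter peak. Its summit (3L, 2115908, rank 487) lay 297 bp upstream of the single TSS and had ranks 384, 572 and 569 in replicates 1, 2 and 3. Inside the gene the pooled list and the lists of replicates 2 and 3 had 0 summits and replicate 1 had 1. Exons make up 77.7% of the sls body and 15.8 kb is intron away from start sites.

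Mhc and Tm2 had no IDR summit. In Mhc the 5 start sites lie within 2.04 kb of each other, and the pooled promoter peak had rank 15236, with ranks 17388, 16449 and 21954 in the replicates. The strongest pooled peak of its window (rank 8179) was at the promoter of another gene beyond the 3′ end. In Tm2 the strongest pooled peak, 211 bp downstream of an own TSS, had rank 14275, with ranks 21262, 17710 and 8481. With the whole pooled list admitted, 9 of 10 members had an own promoter summit, all except nau, against 47.9% of protein-coding genes, so the weak peaks of Mhc, Tm2, sns, kirre and how are what separates this count from the 4 of the IDR list.

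The density of pooled summits in the gene bodies differed widely between the members. It was 3.97 per 10 kb in Mef2, 3.61 in nau, 4.04 in how, 3.35 in kirre, 4.94 in rols, 6.87 in Tm1 and 7.99 in Tm2, against 2.14 over all protein-coding genes. In sns it was 0.174, in Mhc 0.450 and in sls 0. The 3 genes of low density are long, and 22.4% of the protein-coding genes of at least 20 kb had a lower density than sns and 30.0% a lower one than Mhc. A body with no pooled summit, as in sls, was found in 21.5% of those genes. Tm1 was at the other end, with 93.4% of long genes below it. Over the 10 members the replicate lists gave 2.97, 2.77 and 2.66 per 10 kb in replicates 1, 2 and 3 (2.80 ± 0.160, SD, n = 3), against 2.03, 2.22 and 2.18 over all protein-coding genes (2.14 ± 0.0998). Members were above in each replicate, and kirre alone accounts for 394 kb of the 730.1 kb. Without kirre the values were 2.77, 2.53 and 2.68.

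**Figure D3:**
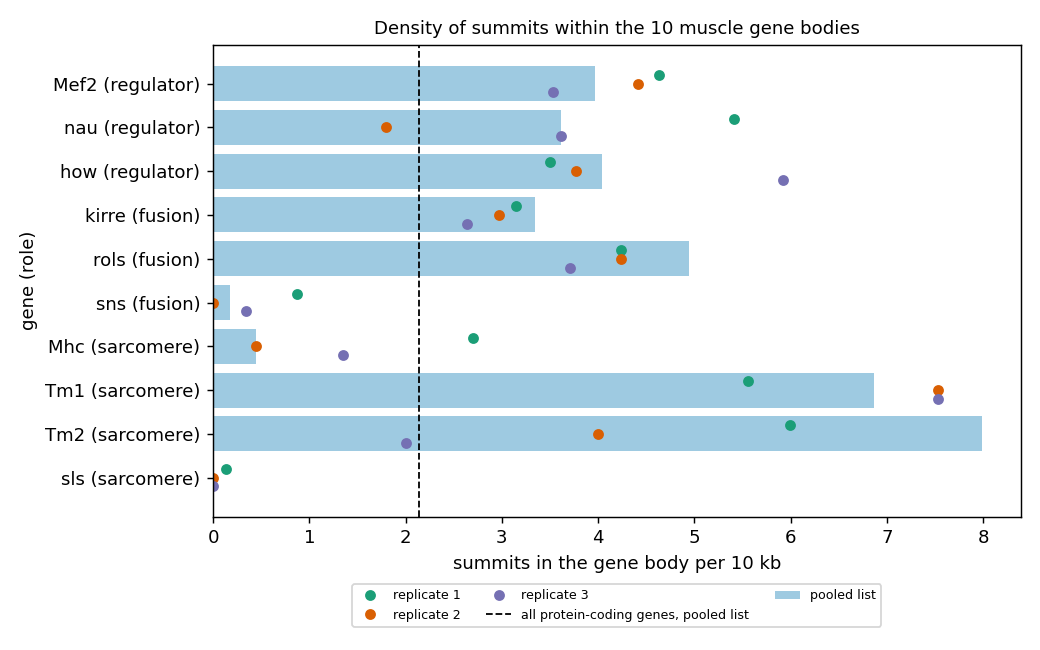
Summits in the gene body per 10 kb for each gene, as bars for the pooled list and dots for replicates 1, 2 and 3, with a dashed line at the value over all protein-coding genes in the pooled list (2.14). The bars of sns, Mhc and sls stop short of the line, those of the other 7 genes pass it, and the dots of nau, Mhc and Tm2, which hold few summits, are spread widely.

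Replicates of 1 gene agreed to different degrees. In Mef2 the density was 4.63, 4.41 and 3.53 per 10 kb in replicates 1, 2 and 3 (4.19 ± 0.583, SD, n = 3), in kirre 3.15, 2.97 and 2.64 (2.92 ± 0.257) and in rols 4.24, 4.24 and 3.71 (4.06 ± 0.306). In Tm1 it was 5.56, 7.53 and 7.53 (6.87 ± 1.13). In sls it was 0.132, 0 and 0, and in sns 0.868, 0 and 0.347, so that in both genes every replicate was below each replicate value of Mef2, kirre, rols and Tm1. In Mhc the values 2.70, 0.450 and 1.35 overlapped those of kirre. In Tm2 they ran from 2.00 to 5.99, on 1 to 3 summits.

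By role, with the genes of a role summed, intron density followed the same order in the IDR and the pooled list. Regulators had 0.987 IDR and 4.09 pooled intron summits per 10 kb of intron away from start sites, fusion genes 0.534 and 3.16, and sarcomere genes 0 and 2.60, against 0.395 and 2.37 over all protein-coding genes. Over protein-coding genes of at least 20 kb the values were 0.337 and 2.15. The sarcomere value covers only 46.23 kb of intron, all 12 of whose pooled summits were in Tm1. The order did not hold gene by gene in either list. In the IDR list how had 1 intron summit in 31.7 kb of intron, sparser than rols (5 in 44.4 kb) and kirre (19 in 357 kb). Mef2 held 5 of the 7 regulator summits. In the pooled list Tm1 had its 12 in 17.8 kb of intron, denser than Mef2 (15 in 35.2 kb), how (12 in 31.7 kb) and nau (2 in 4.01 kb). The fusion value is mostly that of kirre, with 357 kb of the 449.5 kb of intron.

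Support for the member peaks by all 3 replicates depended on how a match was made. When a replicate peak had to overlap by at least 50% of both peaks and be among the 6458 strongest of its list, 14 of 53 member peaks were matched in all 3 (26.4%, exact 95% interval 15.3 to 40.3), against 41.3% of the IDR list. A further 37.7% were matched in 2 replicates, 17.0% in 1 and 18.9% in none, against 30.4%, 17.7% and 10.6% of the IDR list. With any overlap of at least 1 bp in the whole replicate lists, 51 of 53 were found in all 3 (96.2%, 87.0 to 99.5), against 92.9%. The 2 exceptions were the how flank peak, absent from replicate 1, and the kirre peak of rank 5195, absent from replicate 2. Intervals cover counting error over peaks only.

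Width of the peak went with the stricter count. Of the 53 member peaks 20 were under 250 bp wide (37.7%), against 23.8% of the IDR list, and 3 of these (15.0%, 3.21 to 37.9) were matched in all 3 replicates, against 11 of the 33 wider ones (33.3%). Over the IDR list the shares were 23.1% and 47.0%. The rule itself fixes part of this, since a peak cannot match a replicate peak more than 2 times as wide. All 10 member peaks with no strict match, such as the how intron peak of 193 bp and the rols intron peak of 148 bp, were among the narrow ones.

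Other muscle genes, in 4 lists made by hand from general knowledge of the field, differed in how often they had an IDR summit. Of 30 myogenic regulators, 5 had an own promoter summit (16.7%) and 7 an intron summit (23.3%). Of 24 myoblast fusion genes, 12 had a promoter summit and 7 an intron summit (29.2%). Of 30 sarcomere and myofibril genes the counts were 7 (23.3%) and 6, and of 19 genes of muscle attachment and RNA binding 9 (47.4%) and 10 (52.6%). The background of 26.7% for promoters lies above the shares of the regulator and sarcomere lists and below the others. For introns the background of 7.28% is below all 4, whose median bodies of 6.97, 6.14, 4.66 and 20.4 kb are longer than that of all genes. Among genes of at least 20 kb, an intron summit was found in 6 of 10 regulators, 3 of 4 fusion genes, 4 of 6 sarcomere genes and 8 of 10 attachment genes, against 48.0% of all long genes. No test was made of these lists. In the 6458 strongest peaks of replicates 1, 2 and 3 the promoter counts were 5, 5 and 4 for the regulators, 9, 11 and 12 for the fusion genes, 5, 7 and 6 for the sarcomere genes and 8, 9 and 9 for the attachment genes.

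**Figure D4:**
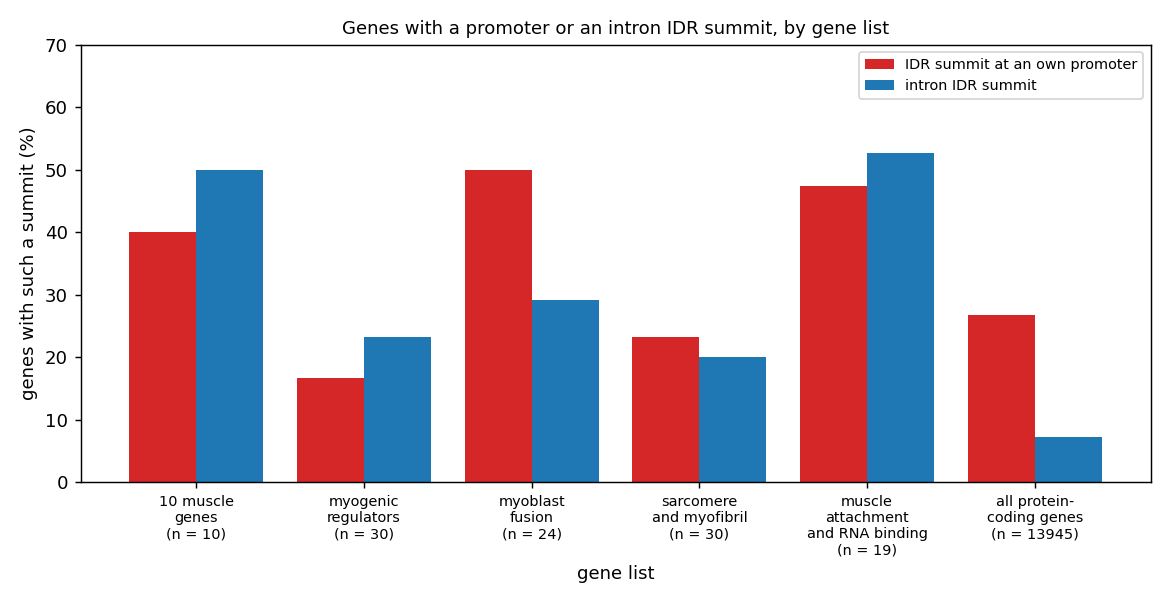
Share of genes with an IDR summit at an own promoter (red) and in an intron (blue), in percent, for the 10 muscle genes, the 4 wider lists and all protein-coding genes, with the number of genes under each pair. The attachment list has a promoter bar of 47.4% and the regulator list one of 16.7%, and all protein-coding genes the shortest intron bar, at 7.28%.

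Within the wider lists the strongest promoter peaks of regulators were those of org-1 (rank 392), a T-box gene, and tin (rank 468), the NK homeobox gene of the heart and visceral mesoderm, with ranks of 355, 457 and 405 and of 570, 492 and 488 in replicates 1, 2 and 3. They were followed by da (rank 3347), which encodes the E-protein partner of tissue-specific bHLH factors. The strongest intron peaks were in pnt (rank 646), an Ets factor gene, and zfh1 (rank 711), a zinc finger homeodomain gene. Of the fusion genes, Hem of the actin-regulating SCAR complex (rank 789), mbc, which encodes a Rac activator (rank 1072), and the GTPase gene Arf6 (rank 1350) led at promoters, and the kinase gene Pak3 (rank 321) and mbc (rank 446) in introns. Of the sarcomere genes, tmod, which encodes the filament-capping tropomodulin (rank 1169), Msp300, a nesprin gene (rank 1179), and the muscle actin gene Act87E (rank 1748) led at promoters. Msp300 (rank 414) and tmod (rank 1592) also led in introns. Of the attachment and RNA-binding genes, the splicing regulator gene mbl (rank 744) and the integrin genes mys (rank 1887) and mew (rank 1929) led at promoters, and Rbfox1 (rank 707) and mew (rank 1227) in introns.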

How the data were processed

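Peaks were called by the authors per replicate, on the 3 replicates pooled, and as an IDR-thresholded list derived from those lists, on dm6 and against 1 common control file, per the README listings deposited with the data. Which caller, aligner and IDR threshold were used is not stated there or in the labels. A deposited peak has the authors' signal value, used only to rank peaks within a list, and their −log10 q-value, which is 4.16 for every IDR peak and ranks none. Read depth is unknown. All 6458 IDR peaks were in the pooled list, and 0 peaks ran past a chromosome end of the RefSeq sequence.

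The summit was the start plus the offset in the narrowPeak columns. The Ensembl annotation, leaving out transposable elements, held 18164 genes, and 13945 were protein-coding. TSS of all biotypes were used to separate introns from promoters. Tm1 and Tm2 windows overlap, and a peak in both was counted once in totals. Older symbols of the wider lists were matched through RefSeq, and mf was not matched. Place calls and matching were tested on simulated data. Python 3.11.15, pandas 2.3.3 and SciPy 1.17.1 were used.

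Members, roles and wider lists were chosen with earlier results of these data known, so no list was tested. The genes named are the 10 members, the neighbours whose promoters their peaks touch, and in each wider list the 3 strongest at promoters and 2 in introns. The comparison with genes of at least 20 kb, the splits at gene midpoints and by peak width, and the other medians of sarcomere gene ranks were added after values were seen. Nothing but the replicate number in the labels separates the samples, and replicates may share technical sources.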

Additional observations from a re-analysis of the deposited data

How the results depend on the processing

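The 53 IDR summits in the windows became 40, 44 and 57 with no flank, 1 kb and 10 kb, 24 in the 3229 strongest IDR peaks, and 29 without kirre, a choice made after seeing the data. Leaving out each replicate in turn, with IDR peaks kept only where matched in both others, gave 18 to 23. The 4 members with an own promoter summit became 2 within 250 bp, 2 in the 3229 strongest peaks, 9 in the pooled list, and 1 to 3 with a replicate left out. The lowest values of both came without replicate 3, and this setting drops unmatched peaks by construction. Members with an intron summit were 5 with either other promoter width, 4 and 7 in the shorter and pooled lists, and 3 with each replicate left out. The share matched in all 3 replicates, 26.4%, was 58.5% with an overlap of 1 bp, 60.4% in whole replicate lists and 18.9% among 3229 replicate peaks. With choices added after seeing the data it was 96.2% with 1 bp in whole lists, 58.5% by summits within 250 bp and 27.6% without kirre. The median rank of 3951 ran from 3026 without kirre to 4179 without flanks. No paired analysis was possible because the series has 1 group. Depth is unknown, so how far missing peaks reflect it was not tested.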
